A study of Mus musculus with 16 samples.

Results

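Chemokines and their receptors were taken as the protein-coding genes whose symbols begin with Ccl, Cxcl, Cx3c, Xcl, Xcr, Ccr, Cxcr or Ackr and that had at least 10 counts over all libraries. This gave 57 genes, of 24971 genes at that minimum and 55487 in the count table. They were 39 ligands and 18 receptors, of which 14 were typical receptors and 4 atypical (Ackr) receptors. RNA was sequenced from cultured heart slices of male mice aged 8 weeks, with 4 libraries in each of 4 groups. The groups were Swhtr null treated, Swhtr null untreated, WT treated and WT untreated slices. Swhtr null mice carried a transcriptional stop signal in the lncRNA gene Swhtr on both alleles (Swhtr 3xpA/3xpA), and WT mice were C57Bl6/J. Treated slices spent 7 days in 3% oxygen and 7 more in 21% oxygen, and untreated slices spent all 14 days in 21% oxygen. All slices came from hearts without apex and base and were grown in medium with serum. The mutant line was made in hybrid embryonic stem cells, backcrossed to C57BL6J and bred homozygous, so that the genotypes were separate lines and line and Swhtr allele cannot be told apart. The 4 mice of a genotype came from 2 litters, and neither mouse nor litter is given per library, so the p-values take libraries as independent although some share a mouse.

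Chemokines are small secreted proteins that direct the movement of cells along their gradients, and they act through G protein-coupled receptors on the target cell. Atypical receptors bind chemokines without G protein signalling and take them up, which shapes the gradient. In the heart, resident macrophages, fibroblasts and endothelial cells make chemokines, and Ccl2 and the Cxcl1 group are known for drawing monocytes and neutrophils to injured myocardium.

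Cxcl1, Cxcl2 and Cxcl3 are neighbours on chromosome 5 that share a receptor but stood at unlike levels in these slices, and Ackr4 on chromosome 9 was the member called by edgeR. Their upstream sequences are shown for this reason. Each run holds the 250 bases before the RefSeq transcription start (GRCm38.p6), on the gene's own strand. The windows are chr5:90890995-90891244 (plus strand) for Cxcl1, chr5:90903649-90903898 (plus strand) for Cxcl2, chr5:90785851-90786100 (plus strand) for Cxcl3 and chr9:104126644-104126893 (minus strand) for Ackr4. By the GENCODE positions used for the genes, Ackr4 starts at 104126933, so its whole window lies inside that gene. The windows of Cxcl1 and Cxcl2 end past their GENCODE starts (90891241 and 90903871). Capitals mark matches to the NF-kB consensus in Cxcl1, Cxcl2 and Cxcl3, and to ACGTG, the core letters of a hypoxia response element, in Ackr4, both searched on both strands.
Cxcl1: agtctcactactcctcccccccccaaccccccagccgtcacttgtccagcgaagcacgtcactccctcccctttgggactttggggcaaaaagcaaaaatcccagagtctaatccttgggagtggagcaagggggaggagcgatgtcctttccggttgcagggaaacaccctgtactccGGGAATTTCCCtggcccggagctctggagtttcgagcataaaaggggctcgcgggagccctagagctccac
Cxcl2: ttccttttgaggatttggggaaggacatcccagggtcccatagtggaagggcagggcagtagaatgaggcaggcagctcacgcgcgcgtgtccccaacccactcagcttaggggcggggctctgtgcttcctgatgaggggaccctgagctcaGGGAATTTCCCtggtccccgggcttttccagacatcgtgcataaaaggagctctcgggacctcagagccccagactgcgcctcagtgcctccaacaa
Cxcl3: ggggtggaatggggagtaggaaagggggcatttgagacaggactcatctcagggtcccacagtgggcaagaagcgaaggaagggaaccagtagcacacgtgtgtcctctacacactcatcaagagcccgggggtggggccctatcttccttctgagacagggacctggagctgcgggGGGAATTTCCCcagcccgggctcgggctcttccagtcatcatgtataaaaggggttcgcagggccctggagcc
Ackr4: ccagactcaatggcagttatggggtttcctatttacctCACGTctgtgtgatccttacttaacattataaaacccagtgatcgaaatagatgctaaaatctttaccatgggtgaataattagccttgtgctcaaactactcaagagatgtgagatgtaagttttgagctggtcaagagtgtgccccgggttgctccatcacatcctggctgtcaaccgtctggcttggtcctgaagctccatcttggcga
In each of the 3 chemokines, 2 overlapping matches, read on opposite strands, form the same run of 11 letters. Cxcl1 and Cxcl3 also hold ACGTG, which is left in lower case there. The match is read on the opposite strand in Cxcl1 and Ackr4, and on both strands in Cxcl3. The run began 71 bases before the start of Cxcl1, 97 bases before that of Cxcl2 and 73 bases before that of Cxcl3. The NF-kB consensus was found in 7 of the 38 member genes with a window, and in 3.9% of all 32851 windows of this length. ACGTG was found in 5 of the 38 genes and in 16.6% of all windows, and in Ackr4 it began 212 bases before the start. The matches are descriptions of letters, and no binding was measured.

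Expression differed greatly among the members. Of the 57, 14 averaged at least 20 CPM (counts scaled to library size with TMM factors), 3 averaged 10 to 20 CPM, 18 averaged 1 to 10 CPM and 22 stayed under 1 CPM. On the scale of CPM per kb of exon, which allows genes to be compared, the receptor Cxcr4 had the highest level of all members at 111. It was followed by its ligand Cxcl12 at 42.8, Cxcl14 at 42.4 and Ccl6 at 42.3, levels that cannot be ranked against each other given the spread over libraries. Ccl7 (37.7), Cx3cl1 (36.7), Cxcl16 (30.5), Ccl2 (28.7) and Cxcl5 (24.4) came next. Among receptors, the order after Cxcr4 was Ackr3 (20.2), which also binds Cxcl12, Cx3cr1 (13.1), the receptor of Cx3cl1, and Ccr1 (12.8), a receptor of Ccl3, Ccl5, Ccl6, Ccl7 and Ccl9 in the mouse.

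**Figure D1:**
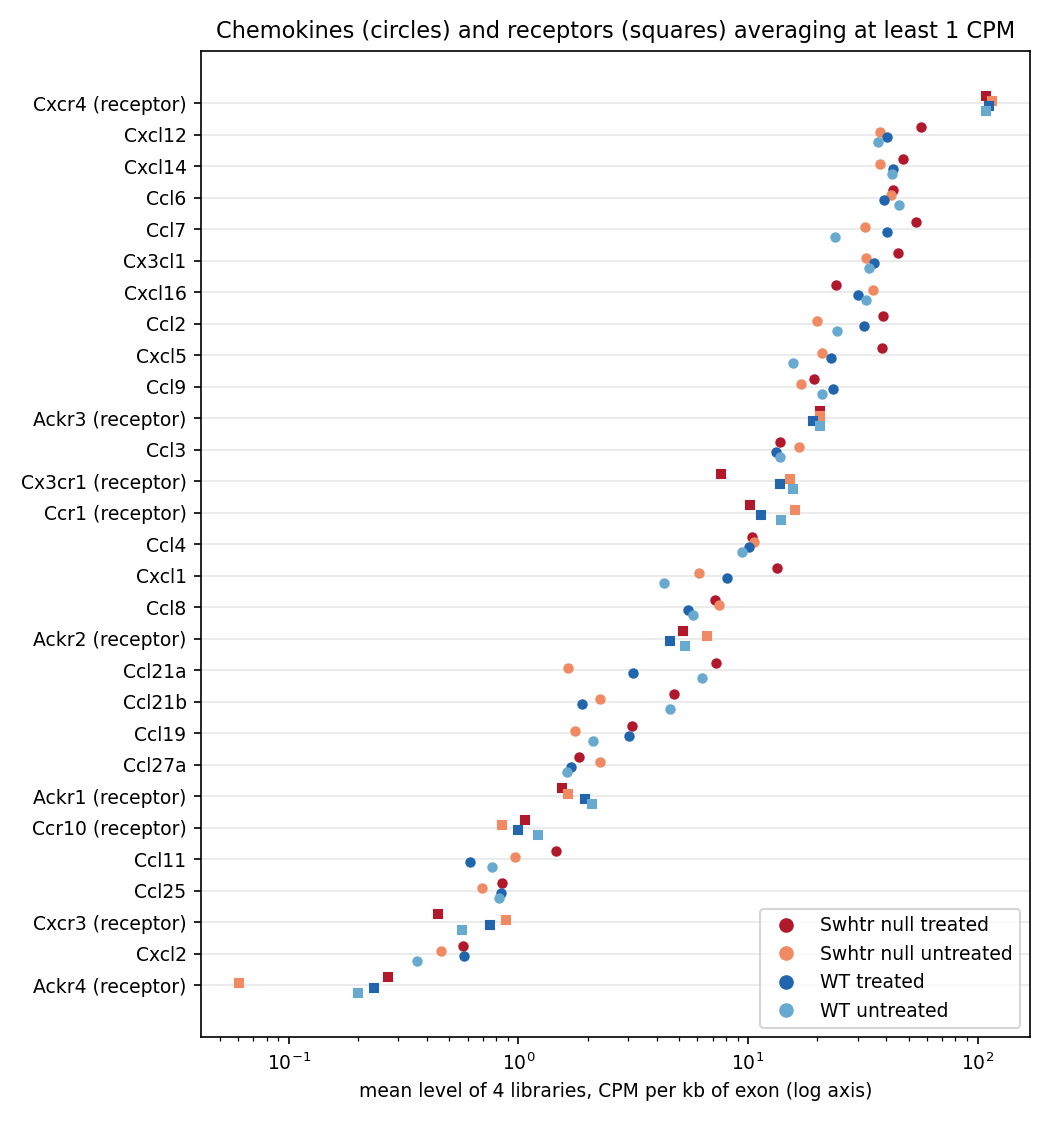
Mean level of the 4 libraries of each group, in CPM per kb of exon on a log axis, for 29 members on chromosomes that averaged at least 1 CPM (circles are ligands, squares are receptors, colours are groups). Cxcr4 lies at the top at 111 CPM per kb and Ackr4 at the bottom at 0.192 CPM per kb, where the untreated Swhtr null mean stands left of the other groups.

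Some ligands stood far above receptors that signal for them, while other pairs were both abundant. Cxcl12 averaged 350 CPM and Cxcr4 201 CPM, and Cx3cl1 averaged 144 CPM and Cx3cr1 58.9 CPM. CPM is not corrected for exon length. Per kb of exon Cxcr4 (111) stood above Cxcl12 (42.8), and Cx3cl1 (36.7) stood above Cx3cr1 (13.1). The ligands Cxcl1, Cxcl2, Cxcl3 and Cxcl5 together gave 31.1 to 136 CPM per library, whereas their receptors Cxcr1 and Cxcr2 together gave 0 to 0.557 CPM. Ccl2 and Ccl7 together gave 31.6 to 112 CPM, whereas Ccr2, the receptor of both on monocytes, gave 0 to 0.769 CPM. Ccr1, which also binds Ccl7, averaged 36.4 CPM. Ackr2, an atypical receptor that takes up inflammatory CC chemokines including Ccl2 and Ccl7, averaged 17 CPM. Markers of neutrophils, which usually carry Cxcr1 and Cxcr2, were scarce. The 5 of 9 with enough counts summed to 2.58 to 7.91 CPM in treated and 4.05 to 13.2 CPM in untreated Swhtr null slices. They summed to 5.55 to 7.37 CPM in treated and 6.61 to 8.61 CPM in untreated WT slices. The monocyte marker Ly6c2 averaged at most 0.257 CPM in a group. It is 1 of 18 macrophage and monocyte markers, and others of them were abundant. Itgam averaged 88.9 to 123 CPM and Cd14 42.6 to 70.7 CPM over the groups, so the share of monocytes cannot be read from Ly6c2 alone.

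The libraries held 17830351 to 29941903 counts. Macrophage and monocyte markers were abundant, with 18 of 18 detected and a sum of 4278 to 10847 CPM in treated Swhtr null, 8541 to 13870 CPM in untreated Swhtr null, 9950 to 11472 CPM in treated WT and 10305 to 12931 CPM in untreated WT slices. Fibroblast markers summed to 17453 to 26235 CPM in the 16 libraries. Markers of cardiomyocytes, the defining cell of the labelled tissue, were low: 10 of them summed to 9.55 to 95.3 CPM in treated Swhtr null, 5.64 to 11.2 CPM in untreated Swhtr null, 8.18 to 48.6 CPM in treated WT and 6.45 to 20.4 CPM in untreated WT slices. No annotated gene covers the Swhtr transcription unit (0 found), so the genotype labels could not be checked on the targeted gene. Library 2 had the lowest macrophage sum of each group. It was far from the next lowest in Swhtr null slices (4278 against 8162 CPM treated, 8541 against 11424 CPM untreated). In WT slices it was near the next lowest (9950 against 10407 CPM treated, 10305 against 10562 CPM untreated). In the comparison of treated with untreated Swhtr null slices, the members that the 2 Swhtr null libraries numbered 2 moved most are given with and without them. In such bulk samples, fewer cells of a type and less RNA per cell cannot be told apart.

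Treated and untreated Swhtr null slices were compared to see which members differed after low oxygen and recovery in the absence of Swhtr. By edgeR's quasi-likelihood test (adjusted p under 0.05 over all genes and a log2 fold change beyond 0.58 in either direction), 1 of 57 members was called, and it was higher. Of all genes tested 0.621% were called, 0.316% higher and 0.304% lower. DESeq2 called 7 members, 4 higher and 3 lower, against 1.86% of all genes (0.985% higher and 0.873% lower). With the library number as a block, edgeR called 7 members, 3 higher and 4 lower, against 2.47% of all genes (1.31% higher and 1.16% lower). The labels do not give this pairing of libraries, which was inferred from these same data, so the blocked p-values here and below depend on it. limma with quality weights called 5 members, 4 higher and 1 lower, against 0.897% of all genes (0.461% higher and 0.437% lower). Without both libraries numbered 2, edgeR called 6 members, 4 higher and 2 lower, against 1.74% of all genes (0.92% higher and 0.817% lower). Leaving these libraries out was chosen after the data were seen, so values without them are no independent check. Before adjustment, 7 members were higher and 5 lower with p under 0.05 unadjusted, against 8.69% and 7.84% of all genes (16.5% in all). The groups did not overlap for 3 members, 2 higher and 1 lower, against 3.54% and 3.78% of all genes (7.32% in all). The median log2 fold change was 0.40 over the 39 ligands and -0.50 over the 18 receptors, beside 0.01 over all genes tested. These medians count near-identical copies of Ccl21 that are not separate measurements. They also count 14 ligands and 8 receptors that averaged under 1 CPM.

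Ackr4, an atypical receptor that takes up Ccl19, Ccl21 and Ccl25, had 2.24, 1.12, 1.15 and 1.31 CPM in treated Swhtr null slices, against 0.518, 0.281, 0.299 and 0.205 CPM in untreated Swhtr null slices. All treated libraries lay above all untreated ones, and both groups were low, with 147 counts in the 4 treated and 26 counts in the 4 untreated libraries. Ackr4 rose in treated Swhtr null slices by a log2 fold change of 2.12 ± 0.53 (SE, n = 4 each, edgeR adjusted p = 0.0398). The blocked fit gave 2.15 ± 0.38 and an adjusted p of 4.2e-04. In WT slices Ackr4 had 1.44, 2.50, 0.418 and 0.674 CPM when treated, against 1.57, 1.47, 0.841 and 0.433 CPM when untreated. These groups overlapped, and the untreated Swhtr null range of 0.205 to 0.518 CPM reached the lowest of the WT values only. Leaving out single libraries gave edgeR adjusted p-values of 0.0408 to 0.179 for this Swhtr null difference, and 6 of the 8 libraries ended the call when left out: treated 1, 2 and 4 (adjusted p = 0.114, 0.0563 and 0.062) and untreated 2, 3 and 4 (0.0505, 0.135 and 0.179). Without both libraries numbered 2 the log2 fold change was 2.16 with an adjusted p of 0.0568, and limma gave 1.98 with an adjusted p of 0.107. Exons of Ackr4 (chr9:104084157-104126933, minus strand) share positions with Acad11 on the opposite strand, and whether counting used strand is not known from the sources used here. Acad11 had 13.9 to 15.1 CPM in treated and 13.5 to 14.6 CPM in untreated Swhtr null slices, a log2 fold change of 0.06 ± 0.10 (SE).

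The ligands of Ackr4 were also at low levels. Ccl19, which guides dendritic and T cells, had 1.74, 4.57, 2.75 and 1.79 CPM in treated Swhtr null slices, against 1.51, 2.36, 1.05 and 1.18 CPM in untreated ones. The log2 fold change was 0.84 ± 0.33 (SE, edgeR adjusted p = 0.193), and the groups overlapped. Ccl25 ranged from 5.13 to 7.19 CPM in treated and from 4.77 to 5.64 CPM in untreated Swhtr null slices, with a log2 fold change of 0.28 ± 0.15 (SE, edgeR adjusted p = 0.346). It shares positions with Elavl1 on the opposite strand, and reads of the pair cannot be told apart without strand. Elavl1 had 60.1 to 68.4 CPM in treated and 57.3 to 69.5 CPM in untreated Swhtr null slices (log2 fold change -0.04 ± 0.07, SE).

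Chemokines of the Cxcl1 group and Ccl2 and Ccl7 had higher means in treated slices, but the untreated library numbered 2 reached the treated range. Cxcl1, which attracts neutrophils through Cxcr2, had 20.1, 32.7, 19.2 and 27.8 CPM in treated Swhtr null slices, against 8.43, 20.4, 9.23 and 7.85 CPM in untreated Swhtr null slices. Apart from untreated library 2, the untreated values lay under all treated ones. The log2 fold change was 1.13 ± 0.33 (SE, n = 4 each, edgeR adjusted p = 0.104). DESeq2 (adjusted p = 0.00468), limma (0.0105) and the blocked edgeR fit (0.0279) called Cxcl1 higher. Without both libraries numbered 2, edgeR gave a log2 fold change of 1.39 and an adjusted p of 0.0129. That choice, made after the data were seen, takes out the untreated value that overlapped.

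Cxcl5, a further ligand of Cxcr2, had 58.7, 103, 44.3 and 78.9 CPM in treated Swhtr null slices, against 23.7, 82.1, 20.9 and 29.6 CPM in untreated Swhtr null slices. Its log2 fold change was 0.87 ± 0.41 (SE, edgeR adjusted p = 0.31), with 1.02 and an adjusted p of 0.0443 in the blocked fit. Without both libraries numbered 2 the log2 fold change was 1.29 with an adjusted p of 0.0192. Cxcl2, which shares the receptor and the NF-kB match shown above, stayed at 0.435 to 1.69 CPM in treated and 0.518 to 1.41 CPM in untreated Swhtr null slices, with a log2 fold change of 0.33 ± 0.38 (SE, edgeR adjusted p = 0.733). Cxcl3 had at most 0.619 CPM in any library. The run of 11 letters was thus found upstream of members of unlike level.

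Ccl2, the main attractant of monocytes, had 47.4, 42, 29.1 and 56.9 CPM in treated Swhtr null slices, against 16.8, 40.8, 14.3 and 18.8 CPM in untreated Swhtr null slices. Again only untreated library 2 reached into the treated range. The log2 fold change was 0.96 ± 0.32 (SE, edgeR adjusted p = 0.154), DESeq2 called it (adjusted p = 0.013), and the blocked fit did not (adjusted p = 0.0833). Without both libraries numbered 2 the log2 fold change was 1.42 with an adjusted p of 0.0167. Ccl7, which lies next to Ccl2 on chromosome 11 and shares the receptor Ccr2, had 36.1, 46.7, 35.7 and 54.9 CPM in treated Swhtr null slices, against 21.1, 42.8, 17.3 and 22.6 CPM in untreated Swhtr null slices. Its log2 fold change was 0.74 ± 0.28 (SE, edgeR adjusted p = 0.203), and 1.05 with an adjusted p of 0.0399 without both libraries numbered 2. DESeq2 (adjusted p = 0.039) and limma (0.0277) called Ccl7 higher over all libraries, and the blocked edgeR fit did not (0.0737).

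**Figure D2:**
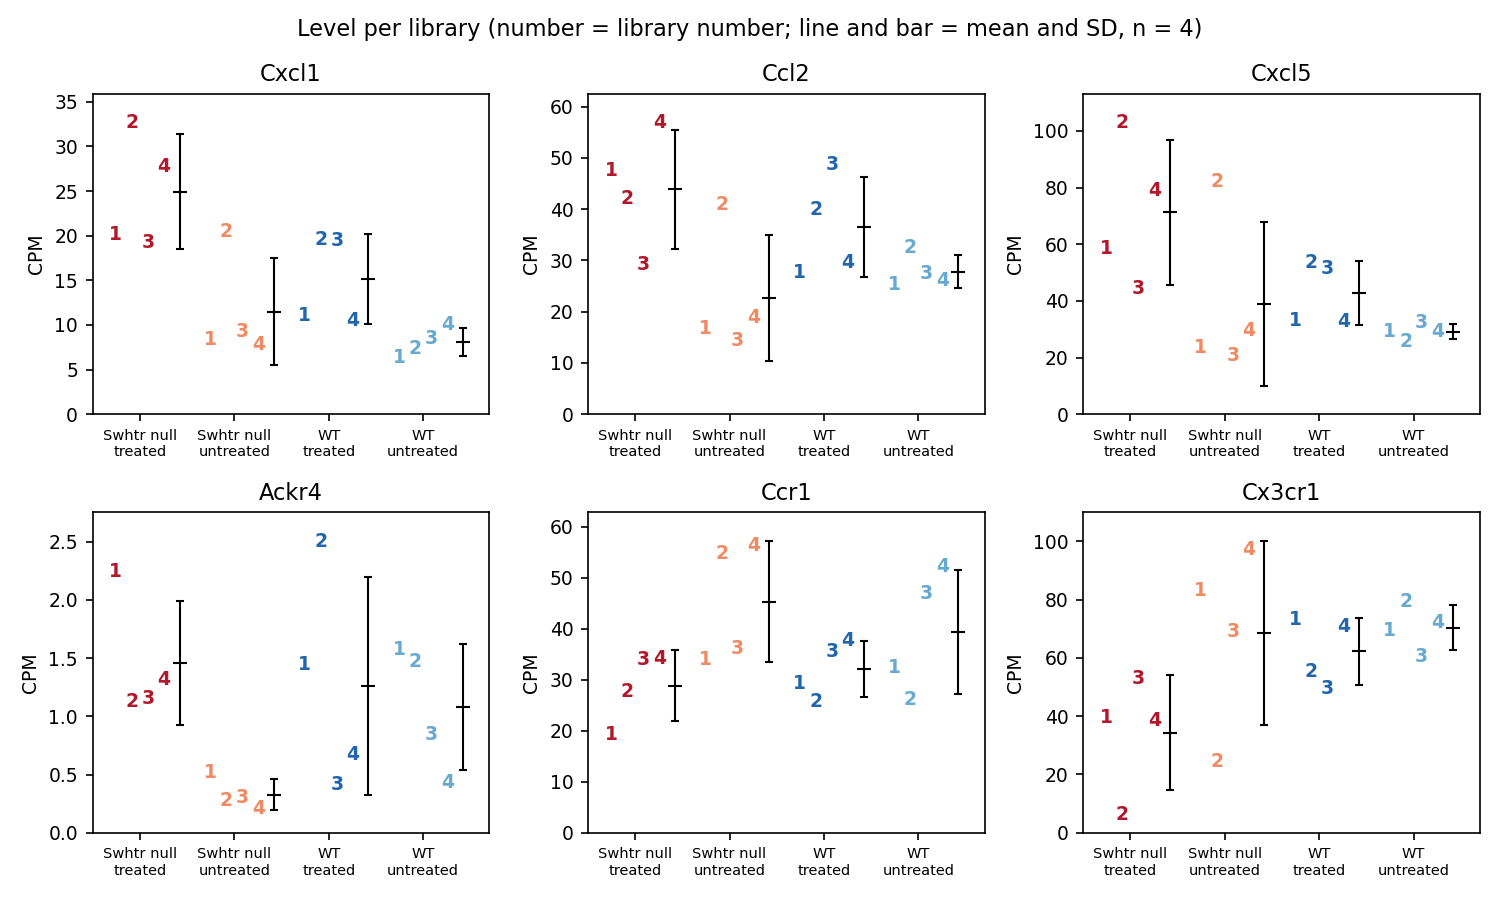
Level in CPM of 3 ligands and 3 receptors in every library, by group; the digits are library numbers, and the line and bar beside them are the mean and SD of 4 libraries. Library 2 of the untreated Swhtr null group stands above its group for Cxcl1 (20.4 CPM), Ccl2 (40.8 CPM) and Cxcl5 (82.1 CPM), and Ackr4 of untreated Swhtr null slices lies at 0.205 to 0.518 CPM.

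Cx3cr1 and Ccr1, receptors that macrophages carry, had lower means in treated Swhtr null slices. Cx3cr1, which marks resident macrophages, had 39.5, 6.35, 53.0 and 38.4 CPM in treated Swhtr null slices, against 83.2, 24.3, 69.0 and 97.3 CPM in untreated Swhtr null slices. Library 2 was the lowest of both groups, and the other treated libraries lay under the other untreated ones. The log2 fold change was -1.0 ± 0.51 (SE, edgeR adjusted p = 0.349). It was -1.12 with an adjusted p of 0.0357 in the blocked fit and -0.93 with 0.0201 without both libraries numbered 2.

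Ccr1 had 19.4, 27.7, 34.0 and 34.1 CPM in treated Swhtr null slices, against 34.0, 54.7, 36.2 and 56.4 CPM in untreated Swhtr null slices, with a log2 fold change of -0.65 ± 0.26 (SE, edgeR adjusted p = 0.229). DESeq2 (adjusted p = 0.0489) and the blocked edgeR fit (0.0192) called Ccr1 lower, and limma did not (0.29). Without both libraries numbered 2 the log2 fold change was -0.53 with an edgeR adjusted p of 0.422. The eotaxin receptor Ccr3 was scarce, with 0.137, 0.145, 0.475 and 0.199 CPM in treated Swhtr null slices, against 1.08, 0.281, 0.898 and 0.923 CPM in untreated Swhtr null slices. Its log2 fold change was -1.69 ± 0.52 (SE, edgeR adjusted p = 0.0937, DESeq2 0.0313, blocked 0.0323), on 26 counts in treated and 64 counts in untreated libraries. Cxcr3, a receptor of T cells and NK cells for Cxcl9 and Cxcl10, ranged from 0.472 to 1.23 CPM in treated and from 0.506 to 2.29 CPM in untreated Swhtr null slices (log2 fold change -0.98 ± 0.45, SE, edgeR adjusted p = 0.277). T and NK cell markers, 7 of 11 with enough counts, summed to 11.8 to 30.6 CPM in treated and 15.5 to 36.2 CPM in untreated Swhtr null slices, and their part in the Cxcr3 values was not tested.

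Macrophage and monocyte markers moved with these receptors. All 18 had a negative log2 fold change in treated against untreated Swhtr null slices, with a median of -0.55, 6 at an unadjusted p under 0.05 (7.84% of all genes were lower at that level) and 0 called by edgeR (0.304%). DESeq2 called 3 of them lower (0.873% of all genes), limma 2 (0.437%) and the blocked fit 6 (1.16%). Per 1000 CPM of the summed markers, a ratio chosen after the values were seen, Cx3cr1 stood at 4.84, 1.48, 4.89 and 4.36 CPM in treated Swhtr null slices, against 6.97, 2.84, 6.04 and 7.01 CPM in untreated Swhtr null slices. Within each library number the treated ratio was the lower one, library 2 was the lowest of both groups, and the other 3 treated libraries lay under the other 3 untreated ones. The same ratio of Ccr1 was 2.37, 6.47, 3.14 and 3.87 CPM in treated Swhtr null slices, against 2.85, 6.41, 3.17 and 4.07 CPM in untreated Swhtr null slices. These groups overlapped, and library 2 was the highest of both. Most of the summed markers was Lyz2, with 5510 ± 1707 CPM in treated and 7444 ± 1105 CPM in untreated Swhtr null slices (SD). Both ratios thus mainly set a receptor against Lyz2, whose log2 fold change was -0.43. Among the other markers, C1qc (-0.99) and C1qb (-0.84) fell more than Lyz2, and Mrc1 (-0.399) and Mertk (-0.27) fell less. Whether Cx3cr1 fell beyond the macrophage markers was not tested. The part of the macrophage level in the receptor values was not tested further. Fibroblast markers (8 of 8), mural markers (7 of 7) and cardiomyocyte markers (10 of 10) had positive log2 fold changes in the same comparison. Of the cardiomyocyte markers, 5 averaged under 1 CPM. edgeR called 1 fibroblast marker higher (0.316% of all genes) and limma 1 (0.461%). DESeq2 called 3 fibroblast and 4 cardiomyocyte markers higher (0.985%), and the blocked fit 2 and 3 (1.31%). No mural marker was called by any of these. The fibroblast sums, mostly Col1a1 and Col3a1, were 19637 to 26235 CPM in treated and 17453 to 21332 CPM in untreated Swhtr null slices. The part of fibroblasts, mural cells and cardiomyocytes in the ligand values was not tested.

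**Figure D3:**
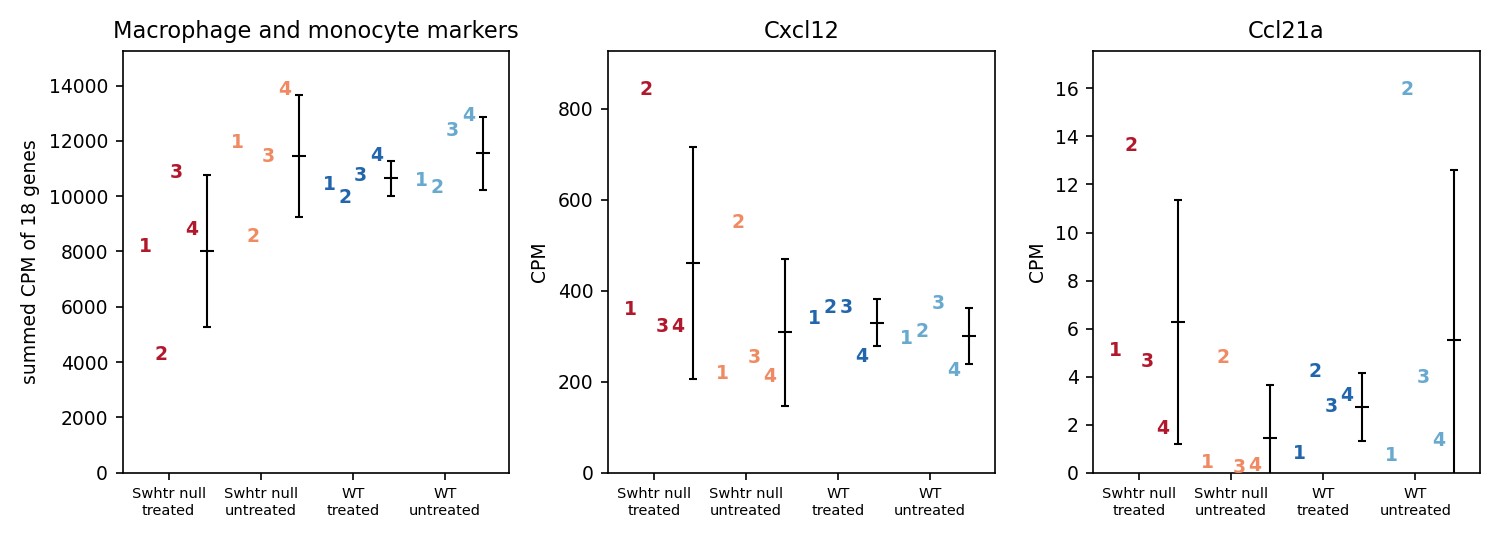
Summed CPM of 18 macrophage and monocyte markers, and CPM of Cxcl12 and Ccl21a, in every library by group; digits are library numbers, the line and bar are mean and SD of 4 libraries, and bars are cut at 0. Library 2 of the treated Swhtr null group has the lowest marker sum (4278 CPM) and the highest Cxcl12 level (843 CPM), and Ccl21a is highest in library 2 of each group.

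Members on the membrane or bound to matrix were among the most abundant. Cx3cl1, a membrane-bound chemokine of endothelial cells and the ligand of Cx3cr1, had 190, 203, 165 and 151 CPM in treated Swhtr null slices, against 137, 143, 126 and 104 CPM in untreated Swhtr null slices. The groups did not overlap, and the log2 fold change was 0.48 ± 0.16 (SE, edgeR adjusted p = 0.145), under the fold threshold. The blocked adjusted p was 9.4e-06 at a log2 fold change of 0.48. Blood endothelial markers moved with Cx3cl1: 7 of 8 had a positive log2 fold change, with a median of 0.25 and 0 called by edgeR, and Kdr, a receptor of vascular endothelial growth factor, had 0.51 ± 0.12 (SE, edgeR adjusted p = 0.0274), under the fold threshold. The 8 summed to 1316 to 2115 CPM in treated and 1246 to 1545 CPM in untreated Swhtr null slices, and their part in the Cx3cl1 values was not tested. Cxcl16, a membrane-bound ligand that macrophages also use as a scavenger receptor, had 71.0, 55.6, 98.1 and 67.4 CPM in treated Swhtr null slices, against 108, 92.0, 94.8 and 130 CPM in untreated Swhtr null slices. Treated library 3 lay inside the untreated range, and the log2 fold change was -0.54 ± 0.16 (SE, edgeR adjusted p = 0.097). Zmynd15, whose exons share positions with Cxcl16 on the opposite strand, had 12.8 to 21.9 CPM in treated and 21.4 to 30.4 CPM in untreated Swhtr null slices (log2 fold change -0.70 ± 0.19, SE, edgeR adjusted p = 0.0702), and reads of the pair cannot be told apart without strand.

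Cxcl12, which retains progenitor and immune cells through Cxcr4, had 358, 843, 322 and 321 CPM in treated Swhtr null slices, against 218, 550, 253 and 212 CPM in untreated Swhtr null slices. Library 2 was far above the others in both groups, and within each library number the treated value was higher. The log2 fold change was 0.58 ± 0.37 (SE, edgeR adjusted p = 0.477), and in the blocked fit 0.57 with an adjusted p of 1.5e-06, under the fold threshold. Without both libraries numbered 2 it was 0.55 ± 0.18 (SE, edgeR adjusted p = 0.111), and the groups then did not overlap. Its receptors had 146, 211, 240 and 192 CPM (Cxcr4) and 50.9, 82.5, 74.6 and 67.6 CPM (Ackr3) in treated Swhtr null slices, against 213, 172, 226 and 223 CPM (Cxcr4) and 68.7, 70.1, 68.0 and 67.3 CPM (Ackr3) in untreated Swhtr null slices. Their log2 fold changes were -0.08 ± 0.16 for Cxcr4 and 0.01 ± 0.14 for Ackr3 (SE). Cxcl14 averaged 86.0 ± 6.79 CPM in treated and 68.5 ± 13.0 CPM in untreated Swhtr null slices (SD, n = 4 each), with a log2 fold change of 0.33 ± 0.13 (SE, edgeR adjusted p = 0.229). Ccl6 averaged 77.0 ± 26.6 CPM in treated and 75.2 ± 18.1 CPM in untreated Swhtr null slices (SD, n = 4 each). Ackr2 averaged 16.3 ± 4.55 CPM in treated and 20.8 ± 5.61 CPM in untreated Swhtr null slices (SD, n = 4 each).

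Treated and untreated WT slices were compared for the same response in the presence of Swhtr. edgeR called 0 of 57 members and 0.0% of all genes tested. DESeq2 (0.036% of all genes), limma (0.02%) and the blocked fit (0.0761%) also called 0 members. Before adjustment 4 members had p under 0.05, 2 of them higher and 2 lower, against 4.81% of all genes. The groups did not overlap for 5 members, 4 higher and 1 lower, against 3.67% of all genes. The macrophage sums of these groups were 9950 to 11472 CPM in treated and 10305 to 12931 CPM in untreated WT slices.

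Cxcl1 had 11.1, 19.6, 19.5 and 10.5 CPM in treated WT slices, against 6.35, 7.41, 8.50 and 10.1 CPM in untreated WT slices. All treated values lay above all untreated ones, with a log2 fold change of 0.91 ± 0.33 (SE, edgeR adjusted p = 0.999, unadjusted p = 0.0183). Ccl7 had 20.3, 34.3, 41.8 and 32.3 CPM in treated WT slices, against 16.9, 17.6, 20.2 and 22.2 CPM in untreated WT slices, a log2 fold change of 0.74 ± 0.28 (SE, edgeR adjusted p = 0.999). Cxcl5 ranged from 32.9 to 53.7 CPM in treated and from 25.7 to 32.5 CPM in untreated WT slices (log2 fold change 0.55 ± 0.41, SE). Cxcl2 and Ccl4 were the other members whose treated WT values all lay above the untreated ones. Ccl2 had 27.6, 40.0, 48.6 and 29.6 CPM in treated WT slices, against 25.2, 32.5, 27.5 and 26.1 CPM in untreated WT slices (log2 fold change 0.39 ± 0.31, SE).

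**Figure D4:**
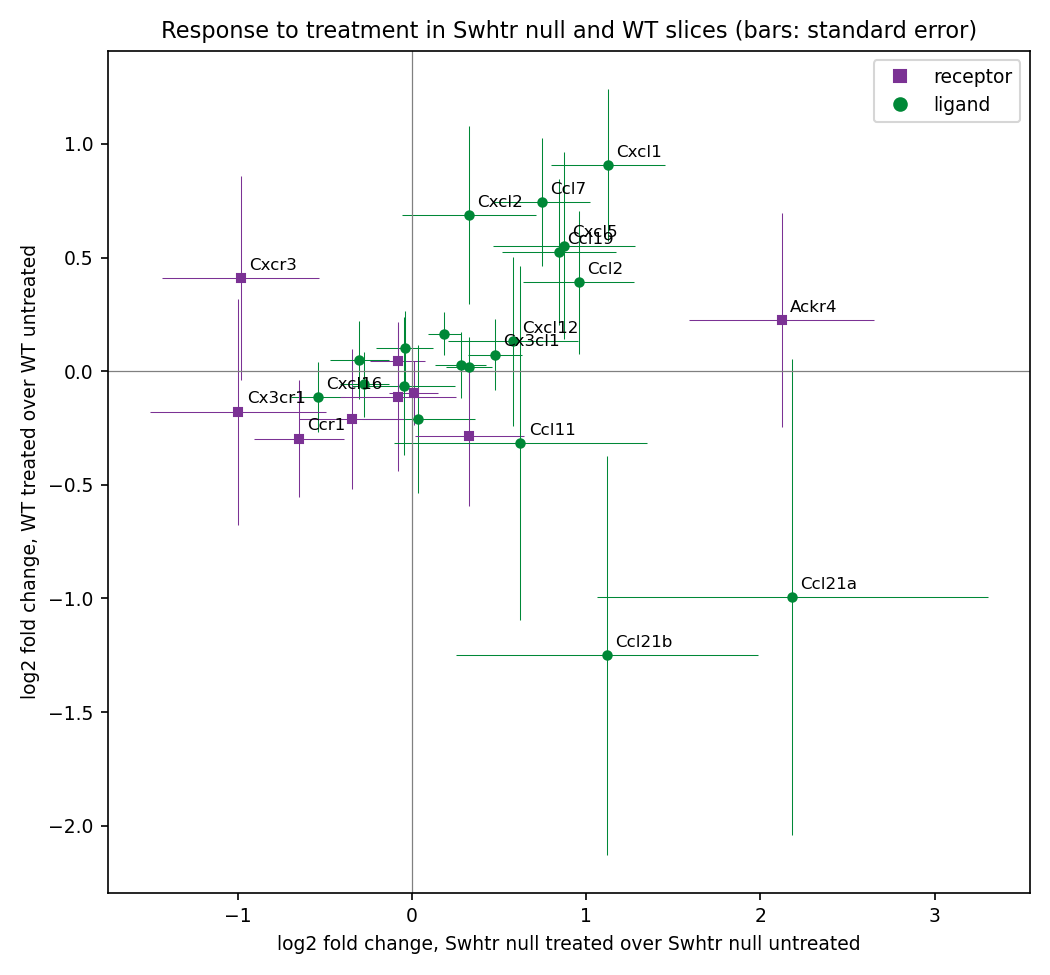
Log2 fold change of treated over untreated slices in Swhtr null (horizontal) and in WT (vertical) for 29 members on chromosomes that averaged at least 20 counts per library, with standard errors as bars. Cxcl1 (1.13 in Swhtr null, 0.91 in WT) and Ccl7 (0.74 in both) lie up and to the right, and Ackr4 (2.12 and 0.23) lies far to the right.

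The response to treatment was compared between genotypes by the difference of the log2 fold changes (Swhtr null minus WT). edgeR called 0 of 57 members and 0.0% of all genes tested, and 5 members had p under 0.05 before adjustment, 3 with a positive and 2 with a negative difference, against 6.89% of all genes. DESeq2 (0.0% of all genes), limma (0.0%) and the blocked fit (0.208%) also called 0 members. Ackr4 had a difference of 1.90 ± 0.71 (SE, edgeR adjusted p = 0.715) and Ccr3 one of -1.77 ± 0.71 (SE, edgeR adjusted p = 0.715), each on few counts. The difference was 0.22 ± 0.47 for Cxcl1 and 0.57 ± 0.45 for Ccl2 (SE). It was 0.40 ± 0.22 for Cx3cl1 (SE).

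Swhtr null and WT slices were compared within each treatment, on the same libraries as above, so that these values are not independent of the treatment comparisons. Among treated slices edgeR called 0 of 57 members, against 0.0921% of all genes, and 5 had p under 0.05 before adjustment, 2 of them higher (6.25% of all genes). DESeq2 (0.156% of all genes), limma (0.0921%) and the blocked fit (0.112%) also called 0. Among untreated slices it called 0 of 57, against 0.1% of all genes, and 3 had p under 0.05 before adjustment, 1 of them higher (5.36% of all genes). DESeq2 (0.132% of all genes), limma (0.1%) and the blocked fit (0.128%) also called 0. Ccl9, a mouse ligand of Ccr1, had 58.6, 60.3, 54.9 and 62.3 CPM in treated Swhtr null slices, against 73.5, 78.9, 68.4 and 65.5 CPM in treated WT slices. The groups did not overlap for Ccl9 alone of the members (4.06% of all genes), with a log2 fold change of -0.28 ± 0.09 (SE, edgeR adjusted p = 0.767, unadjusted p = 0.00739). Among untreated slices Ccl9 had 47.2, 57.5, 46.7 and 56.3 CPM in Swhtr null, against 51.0, 65.2, 71.1 and 67.6 CPM in WT (log2 fold change -0.30 ± 0.09, SE, edgeR adjusted p = 0.903, unadjusted p = 0.00486). The groups overlapped in untreated library 1 of WT.

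Ackr4 in untreated slices was lower in Swhtr null than in WT by its means, 0.326 ± 0.134 CPM in Swhtr null and 1.08 ± 0.539 CPM in WT (SD, n = 4 each), with a log2 fold change of -1.69 ± 0.55 (SE, edgeR adjusted p = 0.903). Ccl27a, a skin chemokine and ligand of Ccr10, had 4.99, 6.13, 4.49 and 5.90 CPM in untreated Swhtr null slices, against 3.62, 4.36, 3.92 and 3.61 CPM in untreated WT slices. The groups did not overlap for Ccl27a alone of the members (2.86% of all genes), and the log2 fold change was 0.47 ± 0.17 (SE, edgeR adjusted p = 0.903). Its exons share positions with Il11ra1 on the opposite strand. Ccl28, the other ligand of Ccr10, averaged 0.299 ± 0.240 CPM in treated Swhtr null and 0.833 ± 0.289 CPM in treated WT slices (SD, n = 4 each), a log2 fold change of -1.44 ± 0.51 (SE, edgeR adjusted p = 0.767). Cxcl1 and Cx3cl1 had log2 fold changes of 0.72 ± 0.32 and 0.35 ± 0.16 between treated Swhtr null and treated WT slices (SE, edgeR adjusted p = 0.767 for both).

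Ccl21 and its copies varied widely between libraries of a group. Ccl21, a lymphatic chemokine that guides dendritic cells and T cells, is encoded in the mouse by several near-identical genes, of which Ccl21a and Ccl21b lie on chromosome 4 and others on unplaced scaffolds. In all, 7 members lie on such scaffolds. The count of Ccl21c equalled that of the Ccl21b copy on scaffold JH584293.1 in 14 of 16 libraries, and the Ccl21b copies on chromosome 4 and on scaffold GL456350.1 were equal in 9 of 16, so that these copies cannot be taken as separate measurements. Ccl21a on chromosome 4 had 5.08, 13.6, 4.62 and 1.83 CPM in treated Swhtr null slices, against 0.424, 4.78, 0.200 and 0.308 CPM in untreated Swhtr null slices. It had 0.813, 4.22, 2.76 and 3.20 CPM in treated WT slices, against 0.735, 16, 3.97 and 1.35 CPM in untreated WT slices. Library 2 was the highest of each group, and the log2 fold changes were 2.18 ± 1.12 in Swhtr null and -0.99 ± 1.05 in WT (SE, edgeR adjusted p = 0.359 and 0.999). Both values turned on library 2. In Swhtr null slices the log2 fold change was 1.47 without treated library 2, 4.31 without untreated library 2 and 3.6 without both, with edgeR adjusted p-values of 0.638, 0.0807 and 0.161. In WT slices it was 0.43 without untreated library 2 (edgeR adjusted p = 0.996), the opposite direction. The 6 lymphatic endothelial markers summed to 302 to 375 CPM in treated Swhtr null, 264 to 410 CPM in untreated Swhtr null, 284 to 365 CPM in treated WT and 296 to 339 CPM in untreated WT slices. Most of the sum was Pdpn, a membrane glycoprotein that other cells also carry, with 237 ± 19.2 CPM in treated and 230 ± 55.7 CPM in untreated Swhtr null slices (SD, n = 4 each). In treated against untreated Swhtr null slices 5 of the 6 markers had a positive log2 fold change, with a median of 0.38 over the 6, and Mmrn1 was at 0 in all these libraries. In WT slices Mmrn1 averaged 4.58 ± 0.58 CPM when treated and 5.49 ± 3.01 CPM when untreated (SD, n = 4 each). Its absence thus went with the Swhtr null line and not with treatment. Lyve1, a hyaluronan receptor of lymphatic vessels, had a log2 fold change of 0.59 ± 0.35 in Swhtr null and -0.81 ± 0.34 in WT slices (SE). The part of these markers in the Ccl21a values was not tested. Copies of Ccl19 and Ccl27 on scaffolds are likewise uncertain.

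The remaining members were expressed at low levels. Ccl3 and Ccl4, inflammatory chemokines made by macrophages, averaged 11 and 6.68 CPM over the 16 libraries, Ccl8 averaged 3.31 CPM, and Ccl11, an eotaxin and ligand of Ccr3, averaged 1.03 CPM. Ackr1, an endothelial and red cell receptor that binds many chemokines, averaged 2.54 CPM and shares exon positions with Cadm3 on the same strand. Ccr10 averaged 1.78 CPM. The members under 1 CPM included Ccl5, Ccl12, Ccl17, Ccl22, Cxcl9, Cxcl10, Ccr2, Ccr7, Ccr9, Cxcr5 and Xcr1, and none of the 22 was called by edgeR without the block in any comparison over all libraries. Ccr3 was the one of them called by DESeq2, and the blocked fit called it too, both in treated against untreated Swhtr null slices. Just inside the minimum of 10 counts was Cxcl15 with 11 counts, and just outside it was Ccr4 with 9. In all, 10 protein-coding genes with such symbols had under 10 counts, 1 of them with 0.

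Other genes of the pathway were read from lists. Of 25 genes of receptor signalling (G proteins, arrestins, Rac, phosphoinositide 3-kinase and RGS proteins), 25 were tested and edgeR called 0 in treated against untreated Swhtr null slices, with 1 higher and 2 lower before adjustment (p under 0.05, beside 8.69% and 7.84% of all genes) and a median log2 fold change of -0.11. DESeq2 called 1 of them lower (0.873% of all genes) and the blocked fit 2 (1.16%). Rgs1, which damps chemokine receptor signals in leukocytes, averaged 68.2 ± 16.9 CPM in treated and 107 ± 16.8 CPM in untreated Swhtr null slices (SD, n = 4 each), a log2 fold change of -0.65 ± 0.19 (SE, edgeR adjusted p = 0.102). Of 24 known NF-kB targets, 23 were tested and edgeR called 0, with 6 higher and 2 lower before adjustment (beside the same 8.69% and 7.84%) and a median of 0.07. DESeq2 called 1 of them lower (0.873%), and the blocked fit called 2 higher (1.31%) and 1 lower (1.16%). Tnfaip3, an inhibitor of NF-kB signalling, averaged 22.4 ± 2.07 CPM in treated and 31.0 ± 1.45 CPM in untreated Swhtr null slices (SD, n = 4 each), with a log2 fold change of -0.47 ± 0.09 (SE, edgeR adjusted p = 0.00844), under the fold threshold. Nfkb1 and Nfkb2, subunits of NF-kB, had log2 fold changes of 0.15 ± 0.05 and 0.18 ± 0.06 (SE, edgeR adjusted p = 0.151 and 0.154).

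Of 12 further ligands, receptors and regulators without a systematic chemokine name, 11 were tested and 0 were called by edgeR or DESeq2 in treated against untreated Swhtr null slices, with 1 higher and 4 lower before adjustment, beside 8.69% and 7.84% of all genes. Mif, a cytokine that binds Cxcr4 and Cd74, averaged 228 ± 24.1 CPM in treated and 328 ± 38.9 CPM in untreated Swhtr null slices (SD, n = 4 each), a log2 fold change of -0.53 ± 0.09 (SE, edgeR adjusted p = 0.00452), under the fold threshold. Pf4, a platelet chemokine also made by macrophages, averaged 44.3 ± 12.7 CPM in treated and 65.3 ± 18.8 CPM in untreated Swhtr null slices (SD, n = 4 each), with a log2 fold change of -0.56 ± 0.25 (SE, edgeR adjusted p = 0.293).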

How the data were processed

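RNA of 16 libraries of heart slices (4 groups of 4) was analysed from the raw counts per gene that the authors deposited. The authors aligned reads with STAR to mm10 and counted them per gene of Ensembl release 102 with GenomicAlignments; the values are whole counts and not normalized. 2 kits for library preparation are named, 1 in the labels and another in the methods, and the use of strand in counting is not given in the sources used here. Symbols, positions and exon lengths came from GENCODE M21 (GRCm38), which held 55227 of 55487 gene identifiers. Promoter windows were RefSeq's, found for 38 member genes.

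Counts were fitted in R 4.3.3 with edgeR 4.0.16 (TMM, robust quasi-likelihood test, 4 group means, 12 residual degrees of freedom) over 24971 genes (minimum total of 10 counts), and p-values were adjusted over all of them by Benjamini-Hochberg. Calls needed an adjusted p below 0.05 with a change beyond 0.58 (log2, either way). Alternatives were DESeq2 1.42.0, limma 3.58.1, other scaling, filters and libraries, and the library number as a block; leaving out both Swhtr null libraries numbered 2 was chosen after seeing the data. The numbers were taken to pair Swhtr null libraries, because deviations from the group means correlated at 0.15, 0.59, 0.26 and 0.40 within numbers 1 to 4. This pairing was read from the same data and is not given in the labels. Treated Swhtr null library 3 correlated better with untreated library 4 (0.33) than with its own number (0.26). In WT the deviations correlated at -0.11, -0.08, 0.16 and 0.32 within numbers, and the blocked fit used the numbers there too. The fit was tested on simulated data.

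Members named were those called by edgeR or DESeq2, up to 8 per comparison with the smallest p and at least 20 counts per library, those of at least 20 CPM, receptors of at least 1 CPM with their ligands, and those beside the count minimum. Cxcl2, Cxcl3, Ccl28, Ccr2, Cxcr1, Cxcr2, the overlapping genes Acad11, Zmynd15 and Elavl1, and the members listed under 1 CPM were named outside this rule, after their values were seen. 1 member is included in the counts of members, but its values are not reported here. The members and gene lists were chosen with earlier results of these data known. No 2 libraries agreed within sampling noise (lowest chi-square per degree of freedom 5.48).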

Additional observations from a re-analysis of the deposited data

Results flagged for a closer look

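Within groups of 4 libraries, 17 of 128 groups examined over the named members of at least 1 CPM had 1 library far from the other 3 by Dixon's criterion, which chance alone gives in about 1 in 20 groups. Ccl21a, Ccl21b and their near-identical copies, which are not separate measurements, account for 8 of them.

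Library 2 of the Swhtr null groups was the one that stood apart most often. Cxcl12 had 843 CPM in treated Swhtr null library 2, against 321 to 358 CPM in the other treated libraries, and 550 CPM in untreated library 2, against 212 to 253 CPM. In untreated library 2, Cxcl5 had 82.1 CPM, Ccl2 had 40.8 CPM and Cxcl1 had 20.4 CPM. Ccl4 was lowest in treated library 2, at 4.17 CPM.

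Among Ccl21 genes, Ccl21a had 4.78 CPM and its copy on scaffold JH584294.1 had 3.37 CPM in untreated Swhtr null library 2. Ccl21b had 4.46 CPM in treated Swhtr null library 2 and 4.68 CPM in untreated WT library 2. Its copy on GL456350.1 had 4.25 and 4.62 CPM in the same libraries, and its copy on JH584293.1 had 2.14 CPM in untreated Swhtr null library 2 and 3.73 CPM in untreated WT library 2.

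Elsewhere, Ackr4 was highest in treated Swhtr null library 1, at 2.24 CPM. Cxcr4 had 259 CPM in treated WT library 4, against 184 to 185 CPM in the others. Ackr3 had 54.9 CPM in untreated WT library 2, against 72.5 to 75.1 CPM in the others.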

How the results depend on the processing

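The count of members called in treated against untreated Swhtr null slices, 1 by edgeR, depended on the tool and the libraries. It was 7 by DESeq2, 5 by limma, 7 with the replicate block and 6 without both libraries numbered 2, beside the shares of all genes given above. It was 0 by edgeR on the 8 libraries compared, where 6 of all 22330 genes were called. With edgeR's filter by expression it was 2, where 198 of all 16696 genes were called. With single libraries left out it was 0 to 6. Leaving out treated library 1, 2 or 4 gave 0 calls (0.313%, 0.325% and 0.51% of all genes). So did leaving out untreated library 3 or 4 (0.198% and 0.0888%). Leaving out treated library 3 gave 4 calls (1.22% of all genes), and leaving out untreated library 2 gave 6 (2.33% of all genes). The cause was not tested. In the other 4 comparisons the count stayed at 0 under every alternative run, with 0 to 0 when single libraries were left out. The replicate block moved the difference between genotypes to an adjusted p of 0.022 for Cxcl12 and 0.031 for Cx3cl1, both under the fold threshold. The blocked fit used the numbers in WT as well, where correlations within numbers were only -0.11 to 0.32. For Swhtr null against WT within a treatment, it used the same number across genotypes as a block. Its values for WT and for the genotypes thus rest on a pairing that was not established. The pairing of Swhtr null libraries was inferred from the same data and is not given in the labels either. In neither genotype did every library correlate best with its own number. Alternatives were tallied only for 43 fold changes of named members with a low unadjusted p in the main fit or a call by DESeq2 or the blocked fit. Of their alternative values, 719 kept direction and call, 27 gained a call, 9 lost one and 0 changed direction. Fold changes picked in this way seldom change direction, so the tally does not describe the other members. Ccl21a in WT slices, which changed direction without untreated library 2, was not among the 43. Members under 1 CPM rest on few counts per library, which widens the error of their fold changes.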
